A study of Mus musculus with 6 samples.

Results

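The genes described here encode the collagens other than type IV, and the enzymes that hydroxylate and crosslink them, in p53 null mammary epithelial cells (MECs) after transient exposure to tamoxifen. A gene was included when a probeset carried a single annotated symbol of the form Col1a1, type IV collagens apart, or was 1 of Lox, Loxl1 to Loxl4, Plod1 to Plod3 and P4ha1 to P4ha3, and the brightest probeset over the 6 arrays stood for the gene. By this rule 46 of 17418 genes were taken, 36 of them collagens and 10 enzymes. Lox, Col19a1 and Col28a1 lack a probeset of their own by this rule and were not analysed here. The control group was 3 pools of MECs from mice given a sham procedure, and the tamoxifen group was 3 pools from mice that had carried a 5 mg tamoxifen pellet for 13 weeks and were collected 4 weeks after its removal. All mice, controls included, were Balb/c wild-type hosts whose cleared fat pads had been filled by p53 null Balb/c mammary duct, and the donors were 8-week-old females and the hosts 3 weeks old when the pads were cleared. All mice were given estradiol (E2, 100 ug) 8 h before collection. The labels give 3 to 5 mice per pool, the design text gives 5, and the host age at pellet placement is labelled as 8 weeks although the steps of the same protocol add up to 16 weeks. The cells were released by collagenase and hyaluronidase, with no sorting described, so host stroma could be carried along with the epithelium, and in such bulk RNA fewer cells of a type and less RNA per cell cannot be told apart. Mean intensity per array was 395.1 to 403.4, and markers of luminal cells (Krt18 and Epcam at a mean intensity of 10530 and 6496 in controls), of basal cells (Krt5 at 2433) and of fibroblasts (Pdgfra at 581) were all measured. Other fibroblast markers were at 62.3 (Tcf21) to 3506 (Gfpt2) in controls. The intensity of a single marker thus does not give the share of a cell type.

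Collagens are built from 3 chains wound into a triple helix. In the endoplasmic reticulum prolyl 4-hydroxylases modify proline so that the helix is stable, and lysyl hydroxylases modify lysine, which prepares the chains for crosslinks. After secretion, lysyl oxidases join the chains into insoluble fibrils and networks. In the mammary gland, fibrillar collagens are made chiefly by stromal fibroblasts and surround the ducts, whereas a few family members, such as type XVII, are made by basal epithelial cells and tie the epithelium to its basement membrane.

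Most collagens and modifying enzymes lay near control 4 weeks after tamoxifen withdrawal, while Col6a3, Loxl2 and P4ha3 were 1.36 to 1.51 times as bright in the tamoxifen pools. By limma, which fits every probeset and steadies its variance with that of all others, 0 of 46 members passed an adjusted p under 0.05, beside 0.389% of all 22369 probesets (0.282% higher and 0.107% lower). Without adjustment, a p under 0.05 was reached by 10 members (21.7%), 6 of them higher and 4 lower, and by 12.4% of all probesets (6.55% higher and 5.87% lower). The groups did not overlap in 18 members (39.1%), 9 higher and 9 lower, and in 21% of all probesets (9.79% higher and 11.2% lower). The median log2 difference (tamoxifen minus control) was -0.01 over the members and -0.02 over all probesets, with 22 members above 0 and 24 below. The 95% interval of the difference lay between -0.5 and 0.5 in 33 of the 46 members. The smallest two-sided p that an exact permutation test of 1 gene allows with these pools is 0.1. The labels do not say how the mice were allotted to the pools, and p-values measure the spread between these pools.

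**Figure D1:**
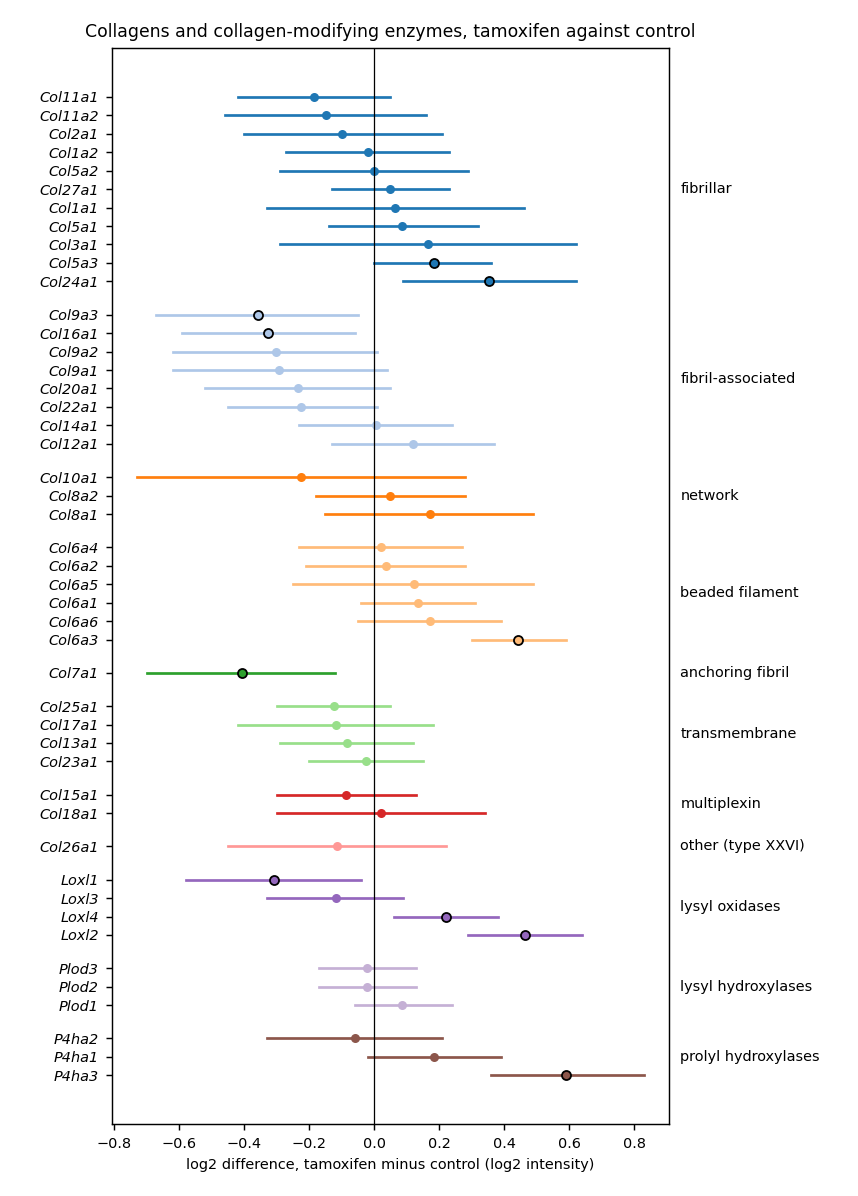
Log2 difference between tamoxifen and control pools (x axis, log2 intensity) for each of the 46 members (y axis), grouped by class; points are differences of group means, lines are 95% intervals from limma, and a black rim marks an unadjusted p under 0.05. Col6a3, Loxl2 and P4ha3 lie farthest to the right, at 0.44, 0.46 and 0.59, and Col7a1 farthest to the left, at -0.41.

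Type VI collagen forms beaded filaments around cells, and its classical form joins the chains of Col6a1, Col6a2 and Col6a3. Col6a3 had an intensity of 612.9, 616.8 and 627.8 in controls and 834.2, 848.7 and 838.9 after tamoxifen. The groups were well apart, and the pools within each differed by little. The mean was 619.1 ± 7.76 (SD, n = 3) in controls and 840.6 ± 7.39 (SD, n = 3) after tamoxifen, a log2 difference of 0.44 (SE 0.06) that just missed the threshold (adjusted p = 0.0578 from limma). Its adjusted p was under 0.05 in 8 of 16 alternative analyses, the methods' t-test among them (adjusted p = 0.0185), and was 0.121 to 0.264 with any 1 pool left out.
The partner chains had smaller log2 differences. Col6a1 was at 1651, 1469 and 1606 in controls and 1696, 1777 and 1711 after tamoxifen, with no overlap but a log2 difference of only 0.13 (95% interval -0.04 to 0.31). Col6a2 was at 945.7, 745.1 and 816.2 in controls and 831.9, 885.0 and 842.6 after tamoxifen, so that all tamoxifen pools fell within the range of the controls. Col6a1 and Col6a2 are adjacent genes on chromosome 10 in RefSeq, and Col6a3 lies on chromosome 1.
Within each array the log2 ratio of Col6a3 to Col6a1, set to a control mean of 0, was -0.08, 0.09 and -0.01 in controls and 0.32, 0.28 and 0.32 after tamoxifen. The groups' mean ratios were 0.31 apart on the log2 scale, and 0.40 apart for Col6a3 to Col6a2. The exact permutation test gave a p of 0.1 for each, the smallest that 3 against 3 allows, and 0.125 after adjustment over 5 such ratios, so neither could pass. These ratios were chosen after the values were seen and are given as a description.
Col6a4, Col6a5 and Col6a6, neighbours on chromosome 9 that encode further chains able to replace the alpha 3 chain, had log2 differences of 0.02, 0.12 and 0.17. All 6 type VI genes had a difference above 0, with a median of 0.13, and only that of Col6a3 had an unadjusted p under 0.05 by limma. Col6a4 and Col6a5 have further probesets, of which 1 for Col6a4 had a difference of -0.28 and the 2 for Col6a5 had 0.16 and 0.20.

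**Figure D2:**
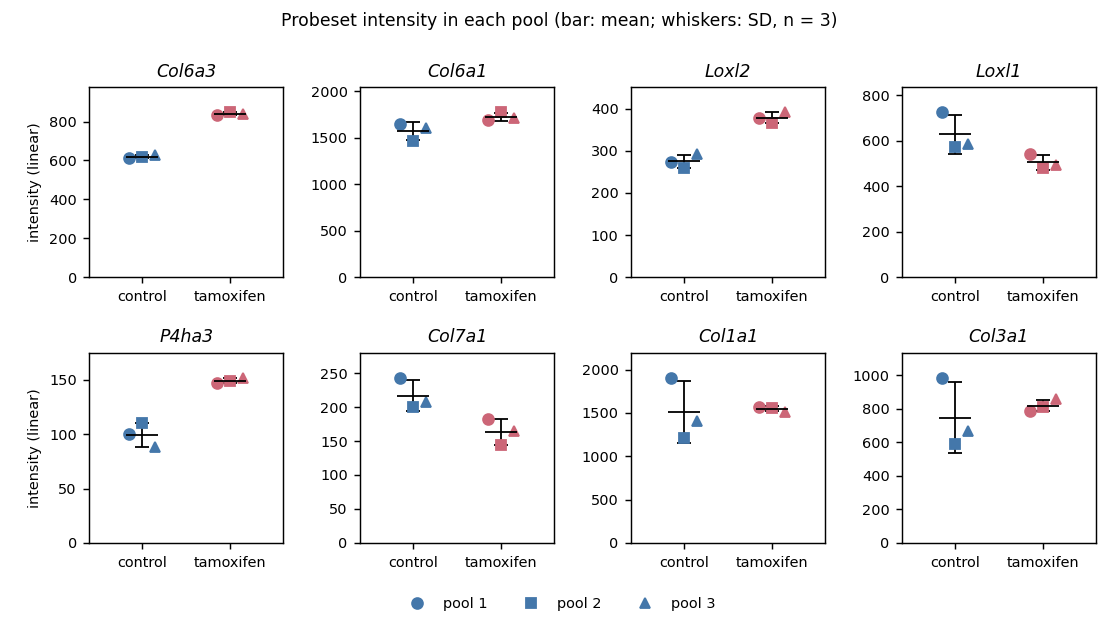
Probeset intensity on a linear scale (y axis) in the control and tamoxifen pools (x axis) for 8 members; symbols mark pools 1, 2 and 3, the bar is the mean and the whiskers the SD (n = 3 per group). Col6a3, Loxl2 and P4ha3 show groups that do not overlap, Loxl1 and Col7a1 were lower in every tamoxifen pool, and control pool 1 stands above all other pools in Col1a1 (1905) and Col3a1 (983.7).

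Of the 4 measured lysyl oxidases, the copper enzymes that start crosslinking, Loxl2 and Loxl4 had log2 differences above 0 and Loxl1 and Loxl3 below, and none passed the adjusted threshold. Loxl2, which also crosslinks basement membrane collagen, was at 272.7, 259.7 and 291.1 in controls and 378.5, 365.3 and 391.6 after tamoxifen. Every tamoxifen pool was above every control. The log2 difference was 0.46 (SE 0.07), and its adjusted p from limma was 0.0865, which ranged from 0.0242 to 0.311 over the alternatives. Loxl4 was also higher in every tamoxifen pool, at 162.2, 168.7 and 176.0 in controls and 198.5, 198.7 and 193.4 after tamoxifen, but by less (log2 difference 0.22, adjusted p = 0.281 from limma).
Loxl1, which is needed for elastic fibers, was at 726.8, 573.5 and 585.7 in controls and 541.7, 481.5 and 491.9 after tamoxifen. All tamoxifen pools were below all controls, by a log2 difference of -0.31 (adjusted p = 0.357 from limma), which was -0.20 without control 1, the brightest pool. Loxl3 overlapped between the groups, with a difference of -0.12, or -0.06 without control 1 and -0.19 without control 3. The log2 ratio of Loxl2 to Loxl1, also chosen after the values were seen, was -0.23, 0.05 and 0.18 in controls and 0.67, 0.79 and 0.86 after tamoxifen. The difference of 0.77 had p = 0.1 by the exact permutation test, and 0.125 after adjustment over the 5 ratios. As 0.1 is the smallest p that this test allows here, the ratio could not pass and is given as a description.

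Among the hydroxylases, P4ha3 had the largest log2 difference of all members, whereas the lysyl hydroxylases were close to control. P4ha3 encodes a catalytic alpha subunit of prolyl 4-hydroxylase. Its intensity was 100.2, 110.4 and 87.94 in controls and 147.3, 148.7 and 151.9 after tamoxifen. The tamoxifen pools were closely grouped above the controls, at 149.3 ± 2.36 against 99.5 ± 11.3 (SD, n = 3 each), with a log2 difference of 0.59 (SE 0.10, adjusted p = 0.0906 from limma). P4ha3 lay below the median intensity of all probesets, and with an offset of 32 on the intensities its difference was 0.47 (adjusted p = 0.052 from limma).
P4ha1, the main catalytic subunit in most tissues, was at 812.4, 922.0 and 916.4 in controls and 961.7, 1069 and 976.4 after tamoxifen, higher in each tamoxifen pool with a log2 difference of 0.18 (95% interval -0.02 to 0.39). P4ha2 overlapped, with -0.06 (95% interval -0.33 to 0.21). The mean log2 ratio of P4ha3 to P4ha1, a pair chosen after the values were seen, was 0.41 above control after tamoxifen. It had p = 0.1 by the exact permutation test, the smallest possible here, and 0.125 after adjustment over the 5 ratios, so it could not pass. P4hb, which encodes the beta subunit shared by these enzymes, was at 2907, 2879 and 2807 in controls and 2534, 2617 and 2499 after tamoxifen, a log2 difference of -0.17 (adjusted p = 0.366 from limma) with no overlap.
Plod1, Plod2 and Plod3, the lysyl hydroxylase genes, had log2 differences of 0.09, -0.02 and -0.02. Their 95% intervals ran from -0.17 at the lowest to 0.24 at the highest and were among the narrowest of the members. Plod1 was higher in every tamoxifen pool, at 972.5, 1018 and 994.7 against 947.9, 921.2 and 943.6. Of the 10 enzymes, 5 had a difference above 0 and 5 below.

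The collagens with the most negative log2 differences were type VII and several fibril-associated collagens, none past the adjusted threshold. Type VII collagen, encoded by Col7a1, forms the anchoring fibrils that fasten the basement membrane to the stroma beneath. It was at 243.1, 200.6 and 207.1 in controls and 182.6, 143.9 and 164.5 after tamoxifen. The groups did not overlap, and the log2 difference was -0.41 (95% interval -0.70 to -0.12, adjusted p = 0.273 from limma).
Fibril-associated collagens sit on the surface of fibrils and link them to their surroundings. Of 8 measured genes 6 had a difference below 0 and 2 above, and the median was -0.26. Among the 6, Col20a1, named after its values were seen, had -0.23. Its further probeset, which does not enter these counts, had -0.01. Col16a1 was at 283.0, 237.5 and 252.1 in controls and 224.5, 182.2 and 209.8 after tamoxifen (log2 difference -0.33, adjusted p = 0.325 from limma). The genes of type IX collagen, best known from cartilage, were lower in every tamoxifen pool, with -0.36 for Col9a3, -0.30 for Col9a2 and -0.29 for Col9a1, the last of which was named after its values were seen. Col9a3 was at 203.6, 167.8 and 161.8 in controls and 155.6, 122.1 and 138.1 after tamoxifen, and only this type IX gene had an unadjusted p under 0.05 by limma. Col22a1, a collagen of tissue junctions, had -0.22, again without overlap.
In Col7a1, Col16a1, Col9a1, Col9a2 and Col9a3 the tamoxifen 2 pool was the lowest of all pools. That array was lower than the others for dim probesets in general, with a median deviation from the control mean of -0.14 on the log2 scale over probesets at or under the median intensity and -0.01 over those above it, and a lower quartile of intensity of 37.5 against 41.5 to 44.6. By the mean over all 6 arrays, only Col9a1 of these 5 genes lay at or under the median intensity. In tamoxifen 2, an array with a median intensity of 129.5, Col9a3 at 122.1 was also below the median. Col7a1, Col9a2 and Col16a1 were not far above it there, at 143.9, 154.2 and 182.2. How that array deviated in this range of intensity was not tested. Without tamoxifen 2 the differences were -0.32 for Col7a1, -0.24 for Col16a1, -0.27 for Col9a3 and -0.19 for Col9a2 (-0.30 with all pools). After quantile normalization they were -0.39, -0.30, -0.34 and -0.28.
Col12a1 and Col14a1 are fibril-associated collagens of soft connective tissue. Col14a1 was at 769.3, 674.6 and 758.5 in controls and 688.0, 704.6 and 819.4 after tamoxifen, with a log2 difference of 0.00 (95% interval -0.23 to 0.24). Col12a1 had 0.12 (95% interval -0.13 to 0.37), or 0.05 without control 1 and 0.22 without control 3.

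The start regions of 5 of these genes are shown, none of which passed the adjusted threshold. They are examples of members that were higher (Col6a3, P4ha3 and Loxl4) and lower (Col7a1 and Col16a1) after tamoxifen. Loxl2 has no entry among the RefSeq start regions and could not be shown. Each region shown is the 250 bases before the start of the gene in RefSeq (build GRCm38.p6), from 5′ to 3′ on the strand of the gene. Capitals mark matches on either strand to the GC box (GGGCGG), the CCAAT box (CCAAT), the TATA box (TATAAA) and the half-site of the estrogen response element (GGTCA), and neighbouring matches can overlap.
Col6a3, chr1:90843972-90844221, minus strand: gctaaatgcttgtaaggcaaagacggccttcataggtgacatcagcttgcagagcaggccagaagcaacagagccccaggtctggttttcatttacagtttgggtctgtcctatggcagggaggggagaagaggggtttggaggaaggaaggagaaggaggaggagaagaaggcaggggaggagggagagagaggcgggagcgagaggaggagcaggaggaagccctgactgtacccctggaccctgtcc
P4ha3, chr7:100285270-100285519, plus strand: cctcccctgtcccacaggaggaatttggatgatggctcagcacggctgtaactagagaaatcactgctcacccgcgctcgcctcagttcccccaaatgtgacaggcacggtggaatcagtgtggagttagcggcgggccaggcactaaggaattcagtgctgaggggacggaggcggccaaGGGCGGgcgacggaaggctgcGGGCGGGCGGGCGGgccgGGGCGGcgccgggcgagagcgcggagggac
Loxl4, chr19:42612807-42613056, minus strand: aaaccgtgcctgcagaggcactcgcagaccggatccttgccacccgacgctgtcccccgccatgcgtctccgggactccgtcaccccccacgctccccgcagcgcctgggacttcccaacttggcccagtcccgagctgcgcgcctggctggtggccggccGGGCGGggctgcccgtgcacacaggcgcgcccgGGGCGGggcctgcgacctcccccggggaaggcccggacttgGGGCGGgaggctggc
Col7a1, chr9:108953336-108953585, plus strand: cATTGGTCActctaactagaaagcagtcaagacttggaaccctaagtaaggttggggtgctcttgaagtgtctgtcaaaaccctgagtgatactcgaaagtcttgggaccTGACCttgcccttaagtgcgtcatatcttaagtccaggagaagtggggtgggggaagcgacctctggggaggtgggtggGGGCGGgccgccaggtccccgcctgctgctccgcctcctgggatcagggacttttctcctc
Col16a1, chr4:130047590-130047839, plus strand: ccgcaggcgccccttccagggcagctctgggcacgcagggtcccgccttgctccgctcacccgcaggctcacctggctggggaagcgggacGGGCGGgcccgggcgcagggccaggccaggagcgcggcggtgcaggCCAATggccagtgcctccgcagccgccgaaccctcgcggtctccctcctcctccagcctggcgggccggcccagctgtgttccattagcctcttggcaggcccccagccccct
Col6a3 holds none of the 4 motifs in this window, P4ha3 holds 5 GC boxes and Loxl4 holds 3. Col7a1 holds 1 GC box, 1 CCAAT box and 2 half-sites, and its CCAAT box overlaps a half-site. Col16a1 holds 1 GC box and 1 CCAAT box.
Of the 46 members 34 have an entry in the RefSeq table, with 37 start regions. A GC box was present in 64.9% of these and in 32.7% of all 32851 start regions in the table, and the members' regions also had more G and C, with a median of 60.4% against 52.4%. The half-site of the estrogen response element was present in 35.1% of the members' regions and 35.2% of all, the CCAAT box in 29.7% and 33.8%, and the TATA box in 16.2% and 12.4%. These matches describe the letters only and are not binding sites.

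Fibrillar collagens, which make up the bulk of the stromal matrix, lay near control, with a median log2 difference of 0.05 over 11 genes, 6 above 0 and 5 below. Col1a1, the main chain of type I collagen, was at 1905, 1214 and 1403 in controls and 1569, 1559 and 1516 after tamoxifen. The controls spread widely (1507 ± 357, SD, n = 3), and the tamoxifen pools lay within their range and close together (1548 ± 28.1). Col3a1, the chain of type III collagen, showed the same spread, at 983.7, 588.5 and 669.3 in controls and 787.7, 812.6 and 855.5 after tamoxifen.
Control 1 was the highest control and control 2 the lowest for Col1a1, Col1a2, Col3a1, Col5a1 and Col5a2. The log2 difference of Col1a1 was 0.06 (95% interval -0.33 to 0.46), that is 0.25 without control 1 and -0.08 without control 2. For Col3a1 it was 0.17 (95% interval -0.29 to 0.62), that is 0.38 without control 1 and 0.01 without control 2. The log2 ratio of Col3a1 to Col1a1 differed by 0.10 between the groups (p = 0.2 by the exact permutation test).
Col1a2, the second chain of type I, was at 1437, 1137 and 1249 in controls and 1283, 1286 and 1188 after tamoxifen, with a difference of -0.02. Col5a1 and Col5a2, chains of type V collagen that set fibril width, had 0.09 and 0.00. Col3a1 and Col5a2 are adjacent on chromosome 1.
Of the fibrillar genes, 2 had an unadjusted p under 0.05 by limma. Col5a3, a further type V chain, was at 195.9, 184.1 and 185.7 in controls and 221.3, 199.5 and 221.9 after tamoxifen (log2 difference 0.18, adjusted p = 0.40 from limma). Col24a1 was dim, at 37.7, 40.6 and 40.8 in controls and 58.9, 46.7 and 47.3 after tamoxifen, and its log2 difference of 0.35 was 0.24 without tamoxifen 1, the brightest pool, and 0.21 with an offset of 32.

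The remaining collagens were the transmembrane types, the multiplexins and the network formers. Col17a1, the hemidesmosome collagen of basal epithelial cells, was at 644.5, 485.6 and 517.3 in controls and 495.3, 472.4 and 542.1 after tamoxifen. The groups overlapped and the log2 difference was -0.12 (95% interval -0.42 to 0.18), or 0.00 without control 1. All 4 transmembrane collagens had a difference below 0, from -0.13 to -0.03, none had an unadjusted p under 0.05 by limma, and all but Col25a1 overlapped between the groups. Col15a1 and Col18a1, multiplexins of basement membranes whose C-terminal fragment in type XVIII is endostatin, had -0.09 and 0.02. The 3 network-forming genes of types VIII and X had -0.22 to 0.17.

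**Figure D3:**
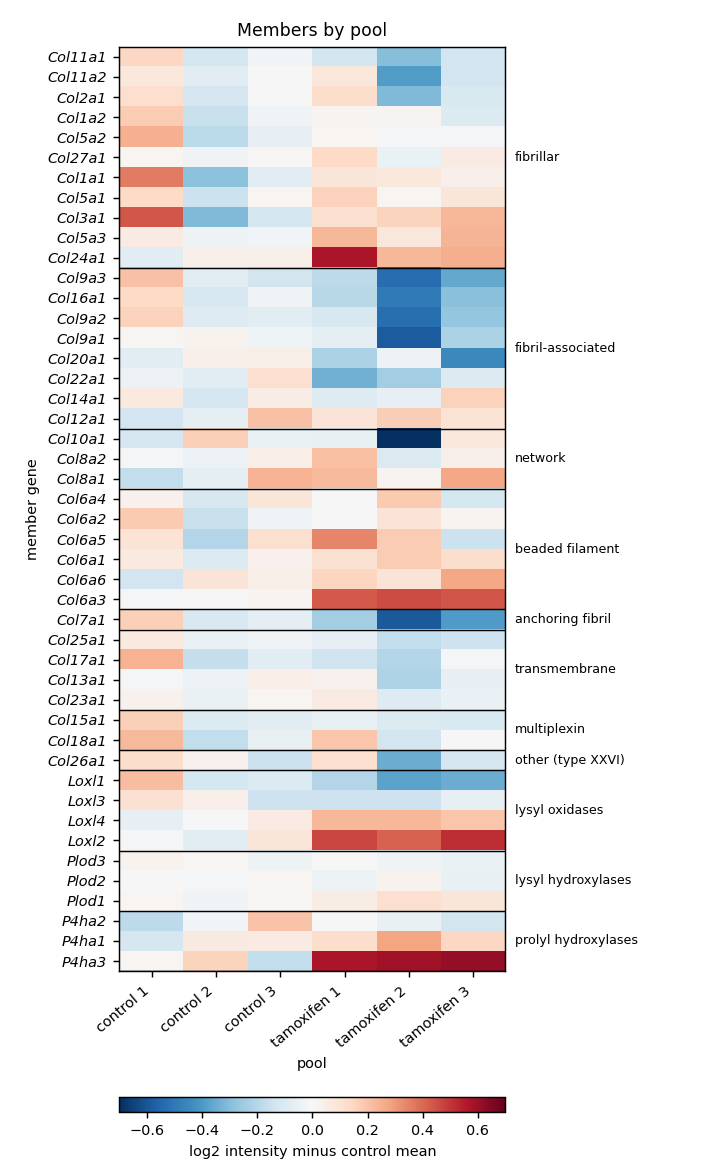
Log2 intensity of each member (rows, by class) in each pool (columns), minus the mean of the control pools; red is higher and blue lower. Col6a3, Loxl2 and P4ha3 are high in all 3 tamoxifen pools, the type IX genes, Col7a1 and Col16a1 are lowest in tamoxifen 2, and Col1a1 and Col3a1 are highest in control 1.

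The pools of a group did not share 1 order across the family, but some pools recurred at its ends. Control 1 was the highest control in 27 of the 46 members (58.7%) and in 41.7% of all probesets, and control 2 the lowest in 30 (65.2%) and in 31% of all probesets. Tamoxifen 2 was the lowest tamoxifen pool in 26 members (56.5%), close to its 51.2% over all probesets. Summed over the members, intensity was 16263 to 18938 in controls and 17802 to 18168 after tamoxifen, so that the tamoxifen pools lay inside the range of the controls.

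Among genes that act beside the collagens, 1 passed the threshold. Among 13 fibril-associated proteoglycans and glycoproteins, 11 had a difference above 0 and the median was 0.20. Prelp, which encodes a leucine-rich repeat proteoglycan that anchors basement membranes to collagen, rose from 3082, 3445 and 3394 in controls to 5118, 4939 and 5400 after tamoxifen. All tamoxifen pools were far above all controls (log2 difference 0.64, SE 0.08, adjusted p = 0.0431 from limma). The difference was 0.59 to 0.67 in every alternative analysis, but the call was lost in 9 of 16, with an adjusted p of 0.136 by the methods' t-test, 0.0508 after quantile normalization, 0.185 with a replicate block and 0.0999 to 0.213 with any 1 pool left out. Tnxb, the tenascin X gene, was at 375.1, 488.7 and 501.8 in controls and 868.7, 735.3 and 849.2 after tamoxifen (log2 difference 0.85, adjusted p = 0.0855 from limma), and Omd, osteomodulin, had 0.68 (adjusted p = 0.142). In the opposite direction Kera, keratocan, named after its values were seen, had -1.31 (adjusted p = 0.183). Dcn, decorin, also named after its values were seen, had 0.02.
Of 11 measured genes for collagen folding and secretion 0 rose and 0 fell by limma, 9 had a difference below 0, and the median was -0.11. Beside P4hb, the smallest p-values in this list were those of Ppib, a prolyl isomerase gene, with -0.19 (adjusted p = 0.487 from limma) or -0.10 without control 1, and P3h3, a prolyl 3-hydroxylase family gene, with -0.14.
Of 6 measured procollagen processing genes 0 rose and 0 fell by limma, and 4 had a difference above 0. Tll1, a procollagen C-proteinase gene, had 0.46 and Pcolce2, an enhancer of that step, had 0.42, whereas Adamts3, a procollagen N-proteinase gene, had -0.28 (adjusted p = 0.296, 0.328 and 0.337 from limma). Without control 1, Tll1 had 0.30 and Pcolce2 had 0.27.
Of 8 collagen receptor genes 0 rose and 0 fell. Ddr2, a receptor tyrosine kinase for fibrillar collagen, was at 942.1, 1114 and 1062 in controls and 1399, 1288 and 1278 after tamoxifen (log2 difference 0.35, adjusted p = 0.216 from limma). Itga2, the integrin alpha 2 chain of epithelial cells, was at 522.1, 579.5 and 580.2 in controls and 462.4, 429.9 and 387.6 after tamoxifen (log2 difference -0.40, adjusted p = 0.183). Itga10, an integrin alpha chain of cartilage, had -0.23 (adjusted p = 0.299). The groups did not overlap in any of these 3 genes.
Of 8 collagen-degrading enzymes 0 rose and 0 fell, and the median was 0.03. Mmp13, a collagenase gene, was higher in every tamoxifen pool, at 294.8, 472.9 and 325.3 against 102.1, 143.8 and 120.5 in controls. Its log2 difference of 1.56 had an adjusted p of 0.0536 from limma, which ranged from 0.0125 to 0.22 over the alternatives. The other 7 had differences of -0.12 to 0.10, among them Mmp9 (-0.12, or -0.06 without tamoxifen 3) and Mmp2 (-0.11), which encode gelatinases.

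**Figure D4:**
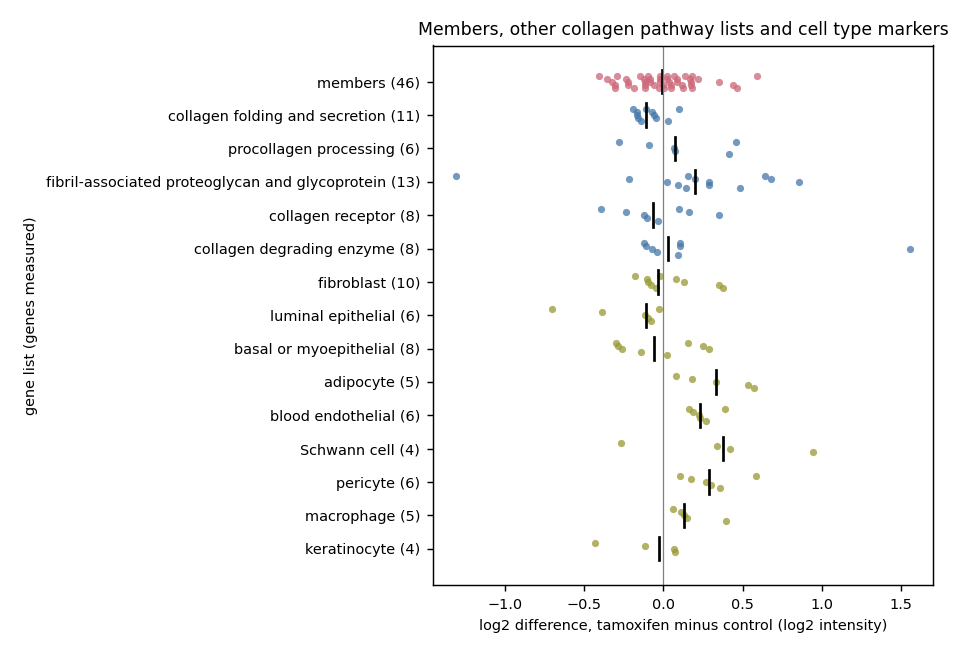
Log2 difference between tamoxifen and control pools (x axis, log2 intensity) for the 46 members, 5 lists of other collagen pathway genes and 9 lists of cell type markers (y axis, genes measured in parentheses); each point is a gene and the black bar the median of its list. The members centre on -0.01, and the pericyte, blood endothelial, adipocyte and macrophage markers lie wholly above 0.

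Markers of several cell types were measured beside these genes, and those named were picked after their values were seen. Of 10 fibroblast markers 4 had a difference above 0 and 6 below, with a median of -0.04, and their summed intensity was 7946 to 9134 in controls and 9576 to 9793 after tamoxifen, with log2 differences of 0.38 for Gfpt2, 0.35 for Clec3b, -0.18 for Pdgfra and -0.08 for Thy1. Without Gfpt2 the sum over the other 9 was 5153 to 5266 in controls and 5137 to 5158 after tamoxifen. All 6 pericyte markers were above 0, with a median of 0.29 and a summed intensity of 5381 to 5846 in controls and 6422 to 6902 after tamoxifen. All 6 blood endothelial markers were above 0 (median 0.23, summed intensity 9567 to 11231 and 12104 to 12366), as were the 5 measured adipocyte markers (median 0.33, 729 to 800 and 806 to 1056). Of 4 measured Schwann cell markers 3 were above 0 (median 0.38, 1161 to 1227 and 1231 to 1356), and Sox10 had -0.27. The 5 measured macrophage markers were all above 0, with a median of 0.13. Their summed intensity was 2193 to 2284 in controls and 2406, 3231 and 2068 in tamoxifen 1, 2 and 3. It was thus highest in tamoxifen 2 and below all controls in tamoxifen 3.
The 6 luminal markers were all below 0 (median -0.11, 30885 to 30975 and 27968 to 29440), and the 8 basal markers had a median of -0.06 (16539 to 20330 and 16632 to 17935), with control 1 highest. Of the basal markers 4 were below 0, namely Krt17 (-0.30), Krt5 (-0.29), Trp63 (-0.26) and Krt14 (-0.14). The other 4 were above 0, namely Myh11 (0.29), Oxtr (0.25), Cnn1 (0.16) and Acta2 (0.02). The 4 keratinocyte markers had a median of -0.03, with a summed intensity of 229 to 257 in controls and 217 to 237 after tamoxifen. In each of these lists 0 genes rose and 0 fell by limma at an adjusted p under 0.05, while an unadjusted p under 0.05 was reached by higher values of 4 pericyte, 3 blood endothelial, 3 Schwann cell, 2 adipocyte, 2 fibroblast and 1 basal marker and by lower values of 2 luminal and 1 fibroblast marker. Over all probesets, 6.55% reached this unadjusted p with higher and 5.87% with lower values, and 44.8% had a difference above 0. The part of cell makeup in the values of Col6a3, Loxl2 and P4ha3 was not tested.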

How the data were processed

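MECs of 6 pools were profiled on 1 Affymetrix mouse array each, named as Mouse Exon ST in the series' text and Mouse Gene ST in the methods. The authors deposited linear probeset intensities, and MAS5 and mm9 appear in the submitters' processing notes without a stated role. For background correction and scaling, the method is not given in the sources used here. Of 22369 probesets 18286 carried 1 symbol, and the Entrez IDs of all 50 member probesets were found in the RefSeq table under the same symbol. Without any offset or filter, log2 intensities were fitted with limma 3.58.1 in R 4.3.3, group as the only term, with 4 residual and 2.35 prior degrees of freedom. Two-sided p-values received the Benjamini-Hochberg adjustment across the whole array. The number of arrays limits the precision. On arrays simulated for the same comparison over 22369 probesets, limma found 73 of 100 probesets changed by 1 on the log2 scale and 95 of 100 changed by 2, with 11 false calls. Changes as small as those of the members (-0.41 to 0.59) were not simulated, so the share found at such sizes is not known.
The members and lists were chosen with earlier results of these data known. Named members are a fixed list of the main collagens and all enzymes, joined with the 12 of smallest p (30 in all). Up to 3 genes by p are named in each pathway list, and any past the threshold. Alternatives comprised array weights, the methods' t-test, median centring, quantile normalization, a robust fit with a variance trend, 2 intensity filters, an offset of 32, 1 probeset per gene, the mean of a gene's probesets, a replicate block and each pool left out. The mean of a gene's probesets entered the count and the median of the members only, not the alternatives counted for single genes. Replicate numbers are shared by the groups. The deviations of same-numbered pools showed no sign of pairing, but 3 pools per group cannot exclude it. Tables and plots used Python 3.11.15, pandas 2.3.3 and matplotlib 3.10.9.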

Additional observations from a re-analysis of the deposited data

How the results depend on the processing

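The number of members at an adjusted p under 0.05 was 0 in the chosen analysis, with median centring, with a replicate block and with any 1 pool left out (0 to 0), and 0 without control 1 and tamoxifen 2 together, an alternative chosen after seeing the data. It was 1 (Col6a3) by the methods' t-test, with quantile normalization, with 1 probeset per gene and with the mean of a gene's probesets, 2 (Col6a3 and Loxl2) with a variance trend, with either intensity filter and with an offset of 32, and 3 (P4ha3 in addition) with array weights, which gave control 1 and tamoxifen 2 the lowest weights (0.445 and 0.347). At an unadjusted p under 0.05, counted after seeing the data, there were 10 members, 16 with array weights and 8 to 11 with 1 pool left out. Over all probesets 87 passed, and 17 by the methods' t-test, 190 with a variance trend, 519 with array weights, 144 with the filter at the 25th percentile, 194 with that at the median intensity, 161 with the offset, 15 with the replicate block, 21 to 31 with 1 pool left out and 4 without control 1 and tamoxifen 2. The filters test fewer probesets and the left-out fits use fewer pools, but the cause of the differences between these analyses was not tested. The median of the members was -0.01, -0.06 to 0.04 with 1 pool left out, and 0.06 without control 1 and tamoxifen 2. Same-numbered pools had correlations of their deviations of 0.0541, 0.00722 and -0.0424, and not every pool correlated best with its own number. These values show no sign of pairing but, with 3 pools per group, cannot exclude it. The replicate block, with 0 members and 15 probesets, also uses up residual degrees of freedom, so its counts do not decide the question.
For 15 named genes of the pathway lists, 238 values held 0 changes of sign, 13 passed the threshold in addition (8 of them of Mmp13) and 9, all of Prelp, were lost. Of 477 values of named members, 442 kept direction and side of the threshold, 14 passed it in addition (Col6a3, Loxl2 and P4ha3) and 21 changed sign, all in members near 0. With median centring Col1a2, Plod2 and Plod3 were at 0.00 and Col5a2 at 0.02, with quantile normalization Col5a2 was at 0.01, and with array weights Col5a2 was at 0.08 and Col17a1 at 0.03. With 1 pool left out the range was -0.08 to 0.25 for Col1a1, -0.10 to 0.07 for Col1a2, -0.09 to 0.12 for Col5a2, -0.04 to 0.13 for Col6a2, -0.07 to 0.05 for Col14a1, -0.20 to 0.00 for Col17a1, -0.06 to 0.13 for Col18a1 and -0.15 to 0.04 for P4ha2.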
